A study of Macaca mulatta with 2 samples.

Results

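NPM1, PPAN and MDN1 encode proteins of the nucleolus and of ribosome assembly, and their transcript abundance was described in RNA of rhesus macaque peripheral blood mononuclear cells (PBMC, a fraction of blood that holds lymphocytes and monocytes). The genes were found by symbol in a table of Ensembl macaque gene identifiers. They are 3 of the 7904 genes listed for this sample and have 6 of the 9267 listed transcripts. They were selected on measured values of these same libraries: PPAN on a low ratio between libraries, PPAN and NPM1 on a difference in isoforms, and MDN1 as a very long mRNA whose value was known. Their values are therefore a description, with no test.

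Total RNA of a single PBMC sample was made into 2 libraries, titled LongInsert and Regular, with 1 library under each title. The labels used here give no strain, age, genotype or treatment. Their protocols describe a standard Illumina preparation for the run of 1 library, and kit-made cDNA, Nextera tagging and size selection on a gel for the run of the other. Labels, series text and tables do not name the same instrument for a title, so no instrument, read length or protocol is assigned to either library, and every direction refers to the title. Abundance is in TPM, a unit that scales each transcript by its length and by the total of its library, so that levels may be compared between genes. No difference could be set against a spread between replicates, since neither preparation was repeated.

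Ribosomes are assembled in the nucleolus, where the precursor of ribosomal RNA is transcribed, modified, cut and bound by ribosomal proteins. Assembly factors bind the growing particles, hold the RNA in shape and are released again before the subunit is exported to the cytoplasm. Resting lymphocytes make few ribosomes, and the pathway is strongly induced when they are activated to grow and divide.

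NPM1, PPAN and MDN1 act at different points of this pathway. NPM1 (nucleophosmin) is an abundant nucleolar chaperone of histones and ribosomal proteins that shuttles between nucleus and cytoplasm. PPAN, the homologue of the fly gene peter pan, is a nucleolar protein needed for maturation of the large ribosomal subunit. MDN1 (midasin) is a very large ATPase of the AAA family, related to dynein, that pulls assembly factors off precursors of the large subunit. On the RefSeq assembly T2T-MMU8v2.0, used here only for names and gene order, the adjacent coding genes are TLX3 and FGF18 for NPM1, ANGPTL6 and P2RY11 for PPAN, and CASP8AP2 and LYRM2 for MDN1. PPAN overlaps ANGPTL6 and holds 2 snoRNA genes, and MDN1 overlaps 1 pseudogene and 1 long noncoding RNA gene. None of the 6 coding neighbours had a match by symbol among the listed genes. Reads that these features share with the 3 genes cannot be told apart in the deposited values, and NPM1 has processed pseudogenes in primates, so its values are uncertain in the same way.

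NPM1 was the most abundant of these genes in both libraries. Its 3 listed transcripts (gene ENSMMUG00000015781) summed to 259 TPM in LongInsert against 179 TPM in Regular, which placed it at rank 79 and rank 92 of the 7904 listed genes. The listed values sum to 13.0% of a complete library in LongInsert and 15.3% in Regular, so ranks given here hold among listed genes only. The 2 sums differed 1.45-fold, and the log2 ratio of LongInsert to Regular, taken after adding 1 TPM to each value, was 0.53. NPM1 was thus within 2-fold, as were 47.9% of the 48 symbol-bearing genes that averaged from 100 to 1000 TPM over both libraries. The median log2 ratio of those 48 genes was 0.67.

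PPAN (ENSMMUG00000017211) was lower in LongInsert, with 8.08 TPM, than in Regular, with 32.6 TPM. Its sum over 2 transcripts was 4.03 times as high in Regular, and the log2 ratio was -1.89. PPAN stood at rank 714 in LongInsert and at rank 286 in Regular. Among the 221 symbol-bearing genes that averaged at least 10 TPM, 6 had a lower ratio.

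MDN1 (ENSMMUG00000003464) went the other way, with 36.7 TPM in LongInsert against 5.56 TPM in Regular. That is a 6.61-fold difference and a log2 ratio of 2.52. Its rank was 329 in LongInsert and 618 in Regular, and 40 of the same 221 genes had a higher ratio. The gene has a single listed transcript, ENSMMUT00000004898, so no isoform share could be compared.

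**Figure D1:**
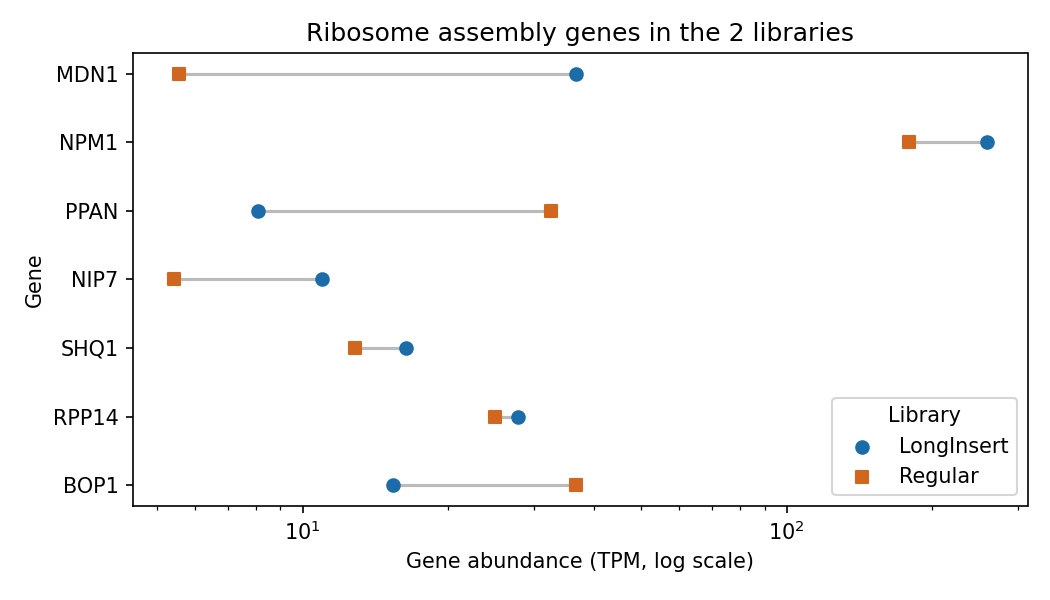
Gene abundance in TPM on a log axis for the 7 ribosome assembly genes that averaged at least 1 TPM, as 1 circle for LongInsert and 1 square for Regular per gene, with no error bars since each library was made once. NPM1 has the highest value in both libraries, MDN1 lies higher in LongInsert, and PPAN and BOP1 lie higher in Regular.

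Among genes that averaged at least 1 TPM, values 2-fold or more higher in LongInsert were more common than values 2-fold or more lower. With a difference of 2-fold or more called among genes that averaged at least 1 TPM, MDN1 was the 1 of 3 genes called higher in LongInsert, where 53.7% of the 365 genes with a symbol and 50.8% of all 1310 genes were higher. PPAN was the 1 of 3 called lower, where 9.59% of genes with a symbol and 19.8% of all genes were lower. Since PPAN was chosen for its low ratio, nothing is read from that share. Among the 159 symbol-bearing genes that averaged from 10 to 100 TPM, the range that holds PPAN and MDN1, 55.3% were higher and 9.43% were lower in LongInsert, and the median log2 ratio was 1.12. The middle 50% of those ratios ran from 0.04 to 2.14, so that MDN1 lay just above that range and PPAN far below it. PPAN was chosen for its low ratio and MDN1 with its value known, so nothing is read from their places. Of the 205 genes that, like MDN1, had a symbol and a single listed transcript, 59% were higher.

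The shift towards LongInsert among genes that averaged at least 1 TPM was reduced by centring. Centring subtracts the median log2 ratio of all genes that averaged at least 10 TPM, which was 0.59. After centring, NPM1 had a log2 ratio of -0.06, and so its direction depended on the scaling. PPAN had -2.48 and MDN1 had 1.93, each still 2-fold or more from equal. The background then was 36.4% higher and 14.5% lower among genes with a symbol, and 38.5% and 25.5% among all genes. That part of the shift was left follows from the set used for centring. Among genes that averaged at least 1 TPM, the median log2 ratio before centring was 1.04 over all and 1.12 over those with a symbol, above the value subtracted.

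The same values give a different order of the levels in each library. In LongInsert it was NPM1, MDN1, PPAN, with NPM1 7.05 times as abundant as MDN1 and MDN1 4.55 times as abundant as PPAN. In Regular it was NPM1, PPAN, MDN1, with NPM1 5.48 times as abundant as PPAN and PPAN 5.86 times as abundant as MDN1. NPM1 stayed first, whereas the large-subunit factors PPAN and MDN1 changed places. This restates their opposite ratios between libraries. PPAN was chosen for its low ratio and MDN1 with its value known, so nothing is read from the change of order. A ratio of levels between genes within a library is not changed by the scaling of that library.

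**Figure D2:**
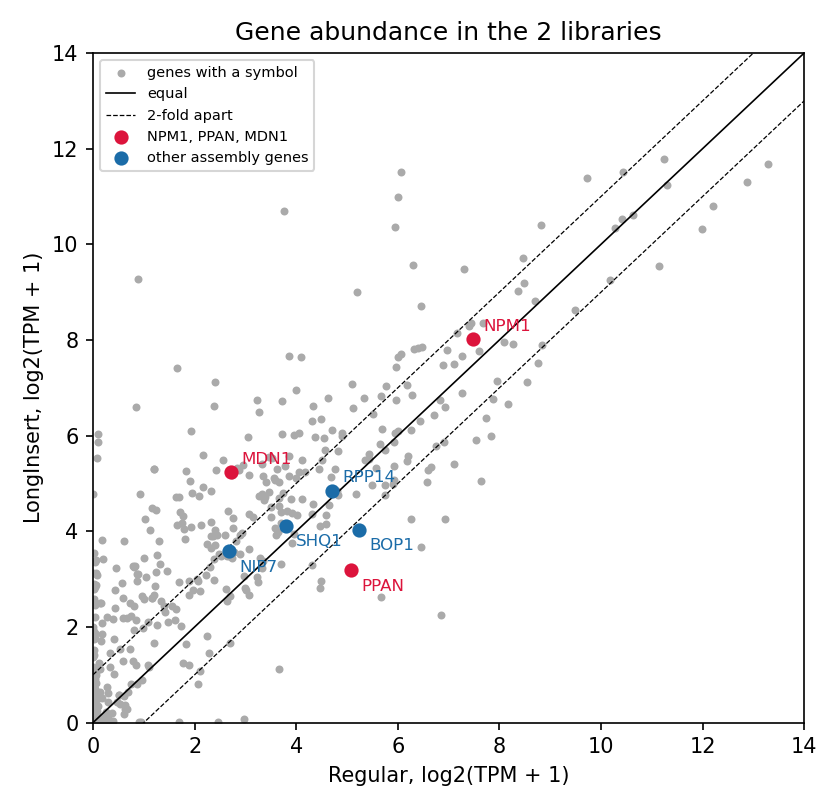
Gene abundance as log2(TPM + 1) in Regular (horizontal) and LongInsert (vertical) for the 724 genes with a symbol (grey), with the line of equal values and dashed lines at 2-fold. NPM1 lies between the dashed lines, MDN1 above them at 36.7 against 5.56 TPM, and PPAN below them at 8.08 against 32.6 TPM.

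The transcripts of NPM1 did not move together. ENSMMUT00000022164 had 259 TPM in LongInsert against 81.5 TPM in Regular, a log2 ratio of 1.66. ENSMMUT00000022165 had 0.0605 TPM in LongInsert against 97.1 TPM in Regular, a log2 ratio of -6.53 that the added 1 TPM holds down. The third, ENSMMUT00000040685, was near 0 in both libraries, at 0.0283 and 0.0547 TPM. Almost all of the listed TPM of NPM1 in LongInsert was thus on a single transcript, with 99.97%. In Regular that transcript had 45.6% and ENSMMUT00000022165 had 54.4%. Shares given here are of a gene's listed transcripts only, and whether it has unlisted transcripts is unknown. The gene sums, within 2-fold, add values that were higher in LongInsert for the first transcript and higher in Regular for the second.

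The exchange between transcripts was more complete in PPAN. ENSMMUT00000024198 had 8.05 TPM in LongInsert against 0.470 TPM in Regular, or 99.6% and 1.44% of the gene. ENSMMUT00000024197 had 0.0302 TPM in LongInsert against 32.1 TPM in Regular, or 0.373% and 98.6% of the gene. Their log2 ratios were 2.62 and -5.01. The transcript with nearly all of the listed TPM of PPAN in LongInsert was thus higher there, although the sum over both transcripts was lower. Within the listed transcripts of PPAN the libraries therefore shared almost no abundance on the same transcript. Of the 6 transcripts of the 3 genes, 5 averaged at least 1 TPM, and of these 3 were called higher in LongInsert and 2 lower, where 51.8% and 20.5% of the 1500 transcripts at that level were. Both lower transcripts belong to NPM1 and PPAN, which were chosen for their isoform difference, so nothing is read from these counts. Which exons or untranslated parts set these transcripts apart was not analysed here, since no transcript sequence or annotation was at hand.

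**Figure D3:**
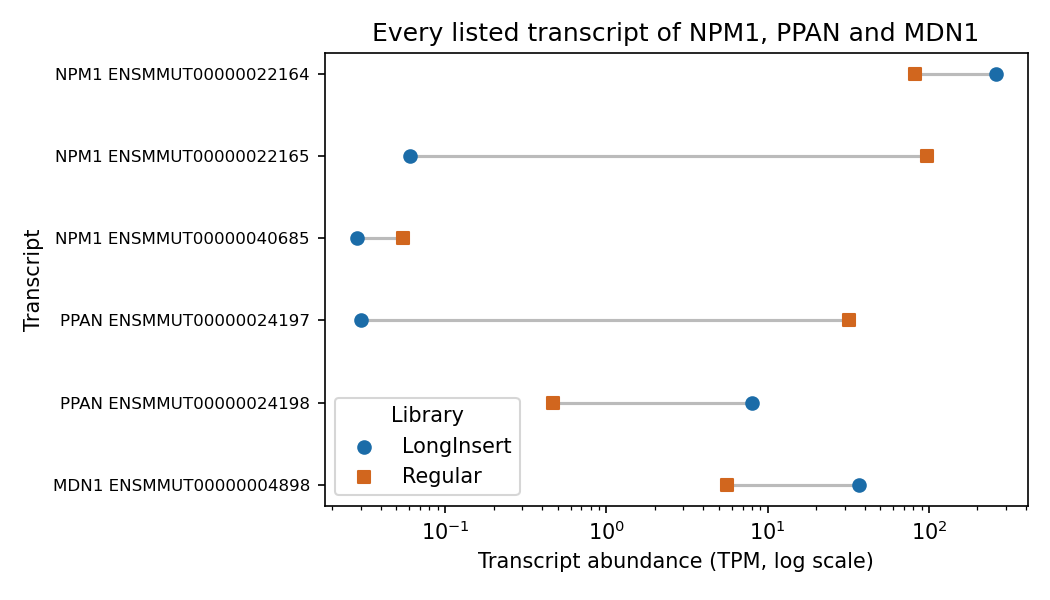
Abundance in TPM on a log axis for each of the 6 listed transcripts of NPM1, PPAN and MDN1, with a circle for LongInsert and a square for Regular. ENSMMUT00000022165 of NPM1 and ENSMMUT00000024197 of PPAN lie under 0.1 TPM in LongInsert and at 97.1 and 32.1 TPM in Regular.

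Isoform redistribution, the percentage points of a gene's listed TPM that lie on a different transcript in the other library, sums this up without picking a leading transcript. It was 98.2 points for PPAN and 54.4 points for NPM1. Among the 194 genes that had at least 2 listed transcripts and averaged at least 5 TPM, the median was 14.6 points and the middle 50% ran from 1.98 to 33.6 points. PPAN ranked first of the 194 and NPM1 ranked 17. Genes with more listed transcripts have more ways to differ, and among genes with the same number PPAN ranked first of 105 (median 5.19 points) and NPM1 ranked 3 of 45 (median 19.5 points). Both genes had different leading transcripts in the libraries, as did 27.8% of the 194 genes. Both reached 50 points, as did 12.4%, and both had a transcript 2-fold or more higher beside another 2-fold or more lower, as did 12.9%. PPAN and NPM1 were chosen for this difference, so nothing is read from these shares.

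**Figure D4:**
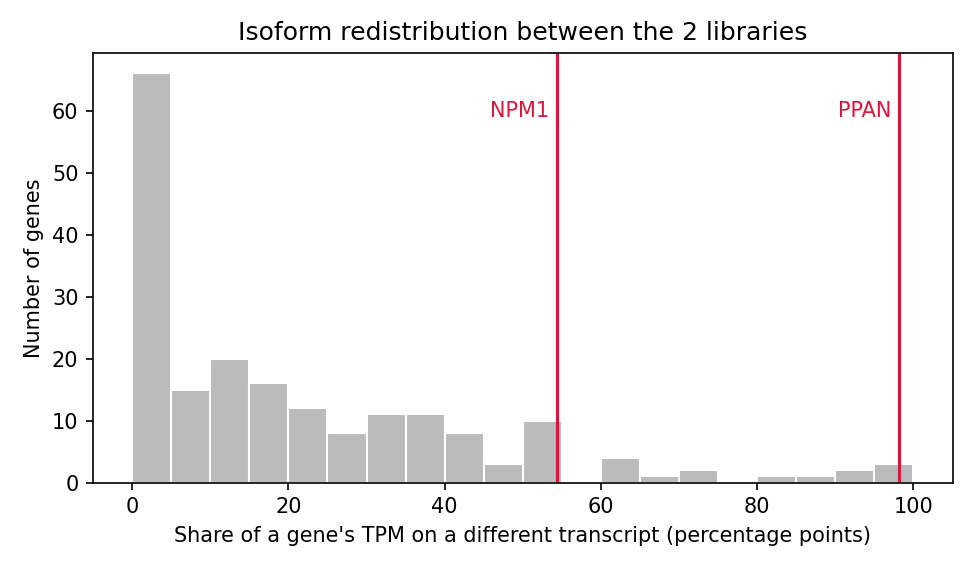
Number of genes (vertical) by isoform redistribution in bins of 5 percentage points (horizontal) for the 194 genes that had at least 2 transcripts and averaged at least 5 TPM, with red lines at NPM1 and PPAN. The lowest bin is the tallest, NPM1 lies at 54.4 points and PPAN at 98.2 points.

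Few transcripts reached 10 TPM in Regular while staying under 0.1 TPM in LongInsert. Of the 6 transcripts of the 3 genes, 3 reached 10 TPM in Regular, and 2 of these, 1 of NPM1 and 1 of PPAN, had this pattern. So did 4.2% of the 547 transcripts that reached 10 TPM in Regular, or 23 transcripts. NPM1 and PPAN were chosen for this isoform difference, so nothing is read from the comparison. In genes with 2 or more listed transcripts there were 5 of 162, or 3.09%. Besides those of NPM1 and PPAN, these were single transcripts of SULT1A3, RAB7A and MACF1, which are named here after their values were seen. The reverse, at least 10 TPM in LongInsert with less than 0.1 TPM in Regular, held for 48 of 737 transcripts (6.51%) and for no transcript of the 3 genes. Only ENSMMUT00000022164 of NPM1 and ENSMMUT00000004898 of MDN1 reached 10 TPM in LongInsert, so nothing is read from that absence. How few reads a value under 0.1 TPM stands for is unknown, since TPM does not record depth.

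Other genes of ribosome assembly were looked up from 6 lists with 216 symbols in all. The tables pair few genes with a symbol (724 of 7904), and only 8 of the 216 symbols were found, NPM1, PPAN and MDN1 among them. Of these 8 genes, 7 averaged at least 1 TPM, and among the 7 MDN1 alone was called higher, PPAN and BOP1 were called lower and 4 were within 2-fold. Over the 365 genes with a symbol these shares were 53.7% higher, 9.59% lower and 36.7% within 2-fold, and over all 1310 genes they were 50.8%, 19.8% and 29.3%. Since NPM1, PPAN and MDN1 were selected on these values, the 4 other genes are also given alone: none was called higher, BOP1 was called lower and 3 were within 2-fold. Their median log2 ratio was 0.24, beside 1.12 over genes with a symbol and 1.04 over all genes, and nothing is read from so few. The lists of RNA polymerase I and of the small-subunit processome had no gene with a matching symbol.

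In the large-subunit list, 4 genes averaged at least 1 TPM. MDN1 was called higher in LongInsert, BOP1 and PPAN were called lower, and NIP7 was within 2-fold. Beside these stand 53.7% called higher and 9.59% called lower of the 365 symbol-bearing genes, and 50.8% and 19.8% of all 1310. MDN1 and PPAN were selected on these values, so nothing is read from the counts. BOP1, a scaffold protein of the PeBoW complex that is needed for processing of the large-subunit RNAs, had 15.4 TPM in LongInsert against 36.6 TPM in Regular, a log2 ratio of -1.20. NIP7, which acts in precursor RNA processing, had 11.0 and 5.42 TPM, a ratio of 2.02 without the added 1 TPM and a log2 ratio of 0.90 with it, just inside the 2-fold limit. EIF6, which keeps immature large subunits from joining small ones, was near 0 in both, at 0.00484 and 0.0222 TPM. After centring, BOP1 had a log2 ratio of -1.79 and NIP7 had 0.30.

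A single gene of the snoRNP list and a single gene of the nuclease list were found, and both were within 2-fold, as were 36.7% of the 365 genes with a symbol. SHQ1, an assembly chaperone of the H/ACA particles that make pseudouridine, had 16.4 TPM in LongInsert against 12.9 TPM in Regular, a log2 ratio of 0.32. RPP14, a subunit of ribonuclease P, had 27.8 and 24.9 TPM, a log2 ratio of 0.15. RPP14 and NIP7, each with 2 listed transcripts, kept the same leading transcript at 99.7 to 99.9% of the gene, and their redistribution was 0.120 and 0.137 points. Both centred ratios, -0.27 for SHQ1 and -0.44 for RPP14, had the opposite sign and were within 2-fold.

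The genes with a symbol nearest to each member over the 2 libraries were found by Euclidean distance of log2(TPM + 1), a likeness that rests on 2 values per gene. Nearest to MDN1 were ANKRD17 (35.2 TPM in LongInsert against 5.68 TPM in Regular, distance 0.07), BRD10 (distance 0.15) and HPS5 (distance 0.17). Nearest to NPM1 were HMGN1, a nucleosome-binding protein, with 312 and 169 TPM (distance 0.28), MOBKL1B (distance 0.28) and ARHGAP30 (distance 0.34). Nearest to PPAN was ASL, argininosuccinate lyase of the urea cycle, with 6.80 and 21.3 TPM (distance 0.63). EEF2KMT (distance 0.70) and PGAM4 (distance 0.77) followed. PPAN had no neighbour as close as those of MDN1. The distance uses the values on which PPAN was chosen for its low ratio, so nothing is read from that. Genes with like sums differed in isoforms. ASL had a redistribution of 3.75 points beside 98.2 points for PPAN, and ARHGAP30 had 0.260 points beside 54.4 points for NPM1. In contrast, EEF2KMT near PPAN had 74.1 points and MOBKL1B near NPM1 had 63.3 points.

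The labelled cell type could be checked with few markers. Of 51 marker symbols in 7 lists, 4 were among the listed genes: FCRL5 of B cells with 32.7 TPM in LongInsert against 10.9 TPM in Regular, FCGR1A of monocytes with 6.69 and 8.47 TPM, ITGB3 of platelets with 3.29 and 1.77 TPM, and HBA1 of red cells under 0.01 TPM in both. Markers of T cells, NK cells and neutrophils were not among the genes with a symbol and were not analysed here. The listed values summed to 13.0% of a complete library in LongInsert and 15.3% in Regular, and no value was exactly 0.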

How the data were processed

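The authors deposited, per the file headers, a TPM value for each transcript in each library. CASAVA 1.8.2, STAR and Trimmomatic are listed, without roles, in the submitters' processing notes, and the series title names Isolator, an estimator of isoform abundance. For genome build, annotation release and settings, the sources used here give nothing. Isoform values are estimates, in which reads shared by transcripts are divided by a model.

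TPM was summed per gene identifier and compared as log2((LongInsert + 1)/(Regular + 1)), which understates the change of low genes. A single library per group allows no test. Differences of 2-fold or more were counted among features that averaged at least 1 TPM. TPM keeps no depth, so no counting interval or detection limit is given. Symbols matched 724 of 7904 genes. By rule, the text names NPM1, PPAN and MDN1, the 3 genes nearest to each of them, and assembly genes on the lists; EIF6, under the minimum of 1 TPM, the marker genes found, and SULT1A3, RAB7A and MACF1 are named outside it. Genes and lists were chosen with earlier results of these data known. Calculations used Python 3.11.15 with pandas 2.3.3 and numpy 2.4.6. They were run on abundances with known changes put in and no added noise, which checks the arithmetic only. Alternatives were other pseudocounts, minimums, centring, rescaling and isoform filters.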

Additional observations from a re-analysis of the deposited data

How the results depend on the processing

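A value counted as changed when it moved by more than 1.5 times, and of 52 alternative values 31 did not. Centring, which subtracts 0.594 from every gene's log2 ratio, took NPM1 from 0.534 to -0.0595, a reversed sign, PPAN to -2.48 and MDN1 to 1.93. Pseudocounts of 0.1 and 5 TPM and rescaling without the 10 most abundant genes left the gene ratios of NPM1, PPAN and MDN1 within that limit. Of 18 alternative transcript ratios 12 moved, and none changed sign. Centring subtracts 0.588 from every transcript's log2 ratio, which alone is past the limit, so each centred transcript ratio moved by construction. With 5 TPM added, ENSMMUT00000024197 of PPAN had -2.88 and ENSMMUT00000022165 of NPM1 had -4.33. Adding 1 TPM to every transcript gave a redistribution of 85.5 points for PPAN and 53.8 points for NPM1. Testing fewer genes lowered the counts by construction. A minimum mean of 10 TPM left 266 genes higher and 143 lower in LongInsert, and genes with a symbol only left 196 and 35. The share called lower also differed, at 19.8% of all genes and 9.59% of genes with a symbol. For genes called higher these shares were 50.8% and 53.7%. A pseudocount of 5 TPM, which shrinks the ratios of low genes, left 420 higher. A minimum gene mean of 20 TPM left 33 genes with a different leading transcript. The planned comparison with protein length was not run, since no protein table was at hand. No paired analysis was possible because each group has 1 library, and no replicate could be left out. Depth is unknown.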
